A study of Homo sapiens with 4 samples.

Results

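The p53 pathway was read here through 30 genes: 3 inhibitors of p53 (MDM2, MDM4 and PPM1D) and 27 genes that p53 is known to switch on, leaving out the inhibitors of cyclin-dependent kinases. Members were taken by gene symbol, and each was represented by its brightest probe set, that is, of the probe sets annotated to that gene alone, the one whose mean level over all 4 arrays was highest. By this rule 28 of the 30 were measured, of 18132 genes measured in all, while BTG2 and FDXR had no such probe set and were not analysed here. The gene of p53 itself is not a member and was not analysed here either. The arrays came from OE33, an established human cell line grown from an adenocarcinoma of the oesophagus. In the ARID1A knockdown group the cells received the ON-TARGETplus SMARTpool ARID1A siRNAs, and in the mock group the ON-TARGETplus Non-targeting Pool. Both groups had 2 biological replicates, 50 nM siRNA delivered by lipofection, medium with 15% serum, and harvest 48 hours after transfection.

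p53 is a transcription factor that is stabilised by DNA damage and other stress and that switches on genes of growth arrest, DNA repair, apoptosis and metabolism. MDM2, a ubiquitin ligase, marks p53 for degradation and is itself a p53 target, so the pathway holds a negative feedback loop, and MDM4 and the phosphatase PPM1D also restrain it. p53 binds response elements made of a pair of decamers that match the p53 decamer consensus, often near the start of its targets. OE33 is known to carry a missense mutation of p53. ARID1A, the targeted gene, encodes a large subunit of SWI/SNF, an ATP-driven chromatin remodeller.

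The arrays were checked before the members were compared. ARID1A had log2 levels of 7.53 and 7.53 in the knockdown arrays, against 9.28 and 9.33 in the mock arrays, a log2 change of -1.78 (SE 0.0718, adjusted p = 0.0218 in limma). All 10 epithelial markers had log2 levels of 8.97 or above on every array. The fibroblast, leukocyte and endothelial markers lay between 2.72 and 7.15, with 7 of 21 in the dimmest 25% of the probe sets. Their summed signal on the linear scale was 181 and 167 in knockdown arrays against 179 and 190 in mock arrays for 8 fibroblast genes. It was 318 and 318 against 354 and 380 for 7 leukocyte genes, and 247 and 234 against 264 and 276 for 6 endothelial genes. The 3′ minus 5′ difference of beta-actin, a measure of RNA integrity, was 1.21 and 1.10 log2 units in the knockdown arrays, against 1.04 and 0.995 in the mock arrays. The leukocyte and endothelial sums were lower, and the beta-actin difference higher, in both knockdown arrays than in both mock arrays, while the fibroblast sums overlapped. The sum of the epithelial markers was higher in both knockdown arrays (85636 and 86123) than in both mock arrays (84505 and 84765). The part of these measures in the results below was not tested. With 2 arrays against 2, an exact permutation test of a single gene cannot go below p = 0.333, so single genes were tested by limma, which pools the spread over all probe sets.

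Among the 28 measured members none passed the test (adjusted p under 0.05 over all probe sets in limma), where 0.188% of all genes passed as higher and 0.215% as lower. The smallest adjusted p was 0.119, for PHLDA3. At an unadjusted p under 0.05 the limma count was 7 members higher, 25.0% of them, beside 9.76% of all genes. These 7 were PHLDA3, BBC3, DDB2, PLK2, CCNG1, PMAIP1 and FBXO22. MDM2 and TRIAP1 were lower, 7.14% of the members, beside 7.25% of all genes. Changes were small: the members ran from -0.36 (MDM2) to 0.41 (PHLDA3) on the log2 scale, a 1.28-fold lower and a 1.33-fold higher level. The smallest change that passed anywhere among the 18132 genes was 0.63. The median change of the members was 0.07, beside -0.0043 for all genes, and 19 of 28 (67.9%) were positive, beside 48.6%. Both knockdown arrays lay above both mock arrays for 15 members, 53.6%, beside 25.8% of all genes, and below them for 6, 21.4%, beside 23.6%. In a bulk RNA sample, fewer cells with a transcript and less of it per cell cannot be told apart. Leaving out knockdown replicate 2 or mock replicate 2 left 2 members higher, PHLDA3 and PLK2. They are 7.14% of the members, beside 5.69% of all genes without knockdown replicate 2 and 5.21% without mock replicate 2. In fits that leave 1 array in a group, the change of MDM2 ran from -0.46 to -0.26. That of TRIAP1 ran from -0.25 to -0.17 and that of PLK3 from -0.29 to -0.05.

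**Figure D1:**
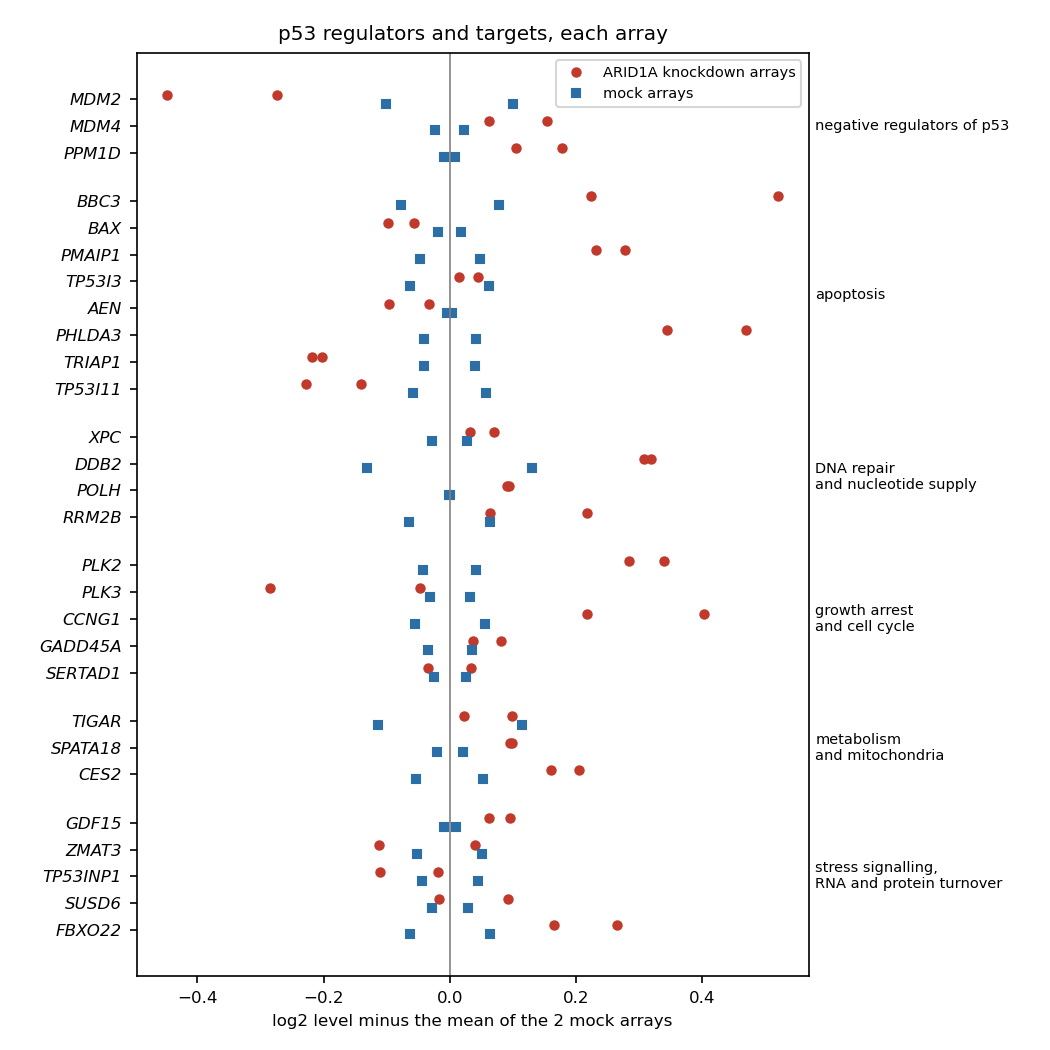
Log2 level of each of the 28 measured members on each array, minus the mean of the 2 mock arrays, at the brightest probe set of each gene. Circles are the ARID1A knockdown arrays and squares, drawn just below them, the mock arrays, with genes grouped by role. The circles of 15 genes lie to the right of both squares and those of 6 lie to the left.

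The test depends on how the spread of a probe set is shared with that of the others. Where limma's prior was allowed to follow the signal level (an intensity trend), 4 members passed: PLK2 (adjusted p = 0.00266), PHLDA3 (0.00801) and CCNG1 (0.0257) were higher and TRIAP1 (0.0378) was lower. PMAIP1 (0.0535), BBC3 (0.0594), MDM2 (0.0739), DDB2 (0.0848) and FBXO22 (0.0866) did not pass there. In that fit 958 of all genes, 5.28%, passed as higher and 607, 3.35%, as lower. The changes themselves are the same in both fits.

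Of the inhibitors of p53, MDM2 had the lowest change of all members, while MDM4 and PPM1D were slightly positive. MDM2, the ubiquitin ligase of p53, had log2 levels of 6.92 and 7.10 in the knockdown arrays, against 7.47 and 7.27 in the mock arrays. Both knockdown arrays were below both mock arrays, with a gap between the nearest 2 that was about as wide as the spread within a group. The means were 7.01 ± 0.123 in knockdown and 7.37 ± 0.142 in mock cells (SD, n = 2 each), a log2 change of -0.36 (95% confidence interval -0.62 to -0.10, unadjusted p = 0.0159, adjusted p = 0.205 in limma). With the mean of all its probe sets the change was -0.14 (unadjusted p = 0.0860). MDM2 was covered by 11 probe sets. The 5 outside the dimmest 25% all had negative changes, from -0.41 to -0.26, and the 6 dim ones ran from -0.14 to 0.29. MDM2 is transcribed from an upstream promoter and from an internal one that is known to answer to p53, and a probe set level does not tell them apart. The 250 bases before the internal start are shown because they hold a pair of adjacent decamers, each with at most 1 departure from the consensus. Capitals mark this pair, 94 to 75 bases before the start (RefSeq, GRCh38.p14, chr12:68808767-68809016, plus strand). Pairs with more departures were not searched for, so a p53 element among the unmarked bases would not be shown.
MDM2: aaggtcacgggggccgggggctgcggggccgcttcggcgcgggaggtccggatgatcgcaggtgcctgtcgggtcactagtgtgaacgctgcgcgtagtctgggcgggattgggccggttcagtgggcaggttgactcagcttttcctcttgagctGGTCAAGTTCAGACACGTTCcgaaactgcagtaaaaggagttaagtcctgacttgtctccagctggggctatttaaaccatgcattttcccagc

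MDM4, which binds p53 and blocks its activation domain, had levels of 7.32 and 7.41 in knockdown arrays, against 7.28 and 7.24 in mock arrays. PPM1D, a phosphatase that turns off p53 and the kinases that activate it, had 8.37 and 8.45 in knockdown arrays, against 8.28 and 8.26 in mock arrays. For both genes the groups did not overlap, but the changes of 0.11 (unadjusted p = 0.212) and 0.14 (0.106) had intervals in limma that included 0. All 4 probe sets of PPM1D were positive, from 0.13 to 0.21. One of the 6 probe sets of MDM4, 11762979_at, had the opposite sign to its brightest one, with a change of -0.26 (unadjusted p = 0.0387, adjusted p = 0.279). The 3 inhibitors thus did not share a sign.

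Of the 8 members that bear on apoptosis, 4 were positive and 4 negative. PHLDA3, which competes with AKT for membrane lipids and so dampens its survival signal, had levels of 9.03 and 9.16 in knockdown arrays, against 8.65 and 8.73 in mock arrays. The groups were well apart, with a change of 0.41 (95% confidence interval 0.20 to 0.61, unadjusted p = 0.00328). All 3 of its probe sets were positive, at 0.14, 0.35 and 0.41. BBC3 encodes PUMA, a BH3-only protein that frees the killer proteins BAX and BAK from their inhibitors, and it had 8.50 and 8.79 in knockdown arrays, against 8.35 and 8.20 in mock arrays. Knockdown replicate 2 stood highest, and the change was 0.37 (95% confidence interval 0.07 to 0.67), with 0.23 at its second probe set. Without knockdown replicate 2 the change was 0.22 (unadjusted p = 0.114 in limma). PMAIP1 encodes NOXA, another BH3-only protein, and had 8.78 and 8.82 in knockdown arrays, against 8.59 and 8.50 in mock arrays. Its change was 0.25 (unadjusted p = 0.0177), with 0.28 at its second probe set, and the groups did not overlap at either.

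BAX, which forms pores in the outer mitochondrial membrane, had a negative change. It had levels of 9.16 and 9.21 in knockdown arrays, against 9.28 and 9.24 in mock arrays, a change of -0.08 (95% confidence interval -0.26 to 0.10, unadjusted p = 0.329). Its second probe set, 11759444_x_at, singled out after its values were seen, had 7.69 and 7.67 in knockdown arrays, against 8.22 and 8.20 in mock arrays. There the change was -0.53 (unadjusted p = 4.04e-04), and its adjusted p of 0.0630 was the smallest of all 87 member probe sets. Probe sets with this ending hold probes that can match other sequences, and why the 2 differ was not tested. With the mean of its probe sets the change of BAX was -0.30 (unadjusted p = 0.00223, adjusted p = 0.0694). TRIAP1, a small protein that protects cells from apoptosis, had 10.07 and 10.05 in knockdown arrays, against 10.31 and 10.23 in mock arrays. Its change was -0.21 (unadjusted p = 0.0318 in limma), on its 1 probe set, which can match other sequences. TP53I11 had a change of -0.18, the nuclease gene AEN of -0.06 and TP53I3, an oxidoreductase, of 0.03, none at an unadjusted p under 0.05 in limma.

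**Figure D2:**
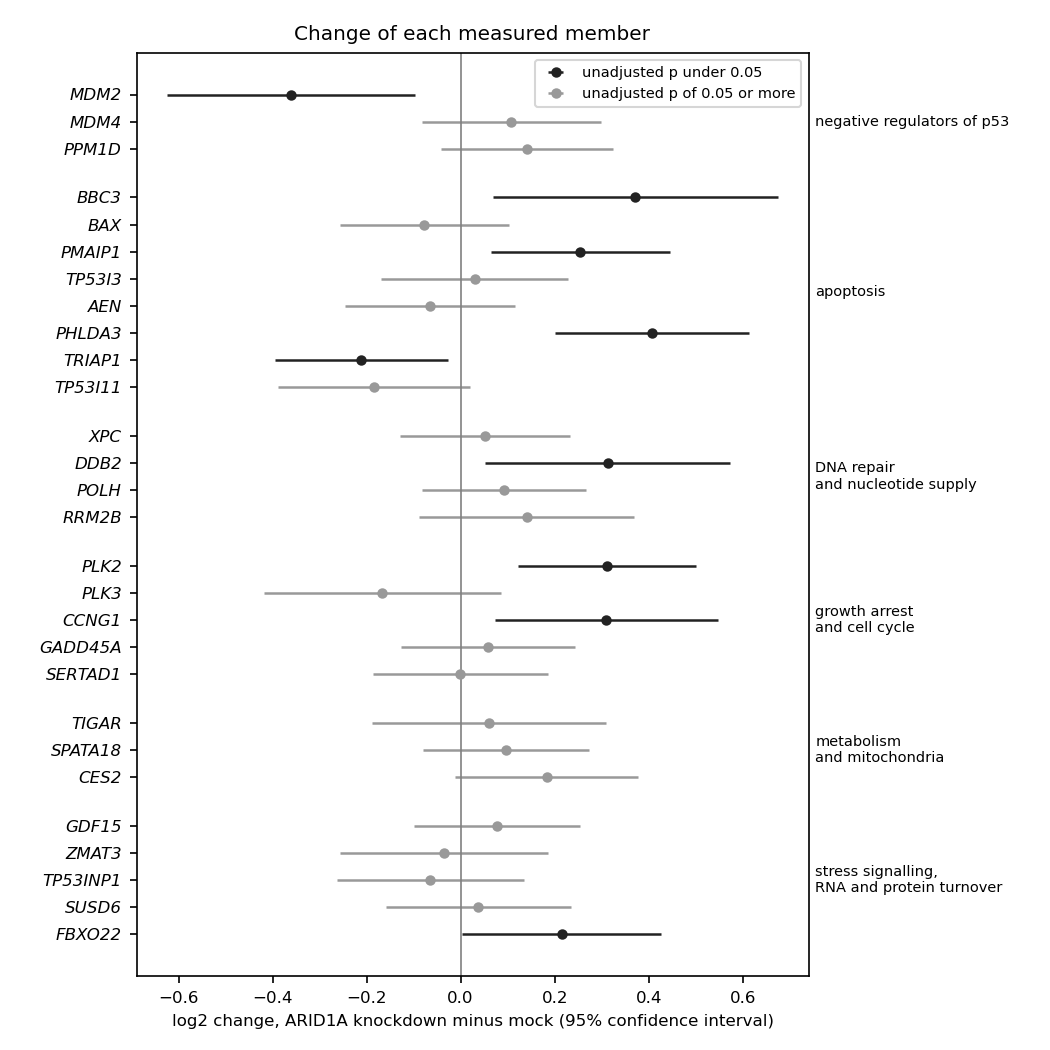
Log2 change of each measured member, knockdown minus mock, with the 95% confidence interval of the limma fit, unadjusted for the number of genes. Dark points are the 9 members at an unadjusted p under 0.05, of which 7 lie right of 0 and 2, MDM2 and TRIAP1, lie left of it.

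All 4 members of DNA repair and nucleotide supply had positive changes at their brightest probe sets, the largest that of DDB2. DDB2 recognises ultraviolet damage for nucleotide excision repair. It had levels of 8.14 and 8.13 in knockdown arrays, against 7.95 and 7.69 in mock arrays, with the mock arrays further apart than the knockdown arrays. The change was 0.31 (95% confidence interval 0.05 to 0.57, unadjusted p = 0.0266), and 0.18 without mock replicate 2 (unadjusted p = 0.106 in limma). The second probe set had 7.06 and 7.29 in knockdown arrays, against 6.75 and 6.52 in mock arrays, a change of 0.53 (unadjusted p = 0.00506, adjusted p = 0.137). RRM2B, the p53-inducible subunit of ribonucleotide reductase, had a change of 0.14, POLH, the polymerase that copies past ultraviolet lesions, of 0.09, and XPC, another damage sensor of excision repair, of 0.05. A second probe set of RRM2B outside the dimmest 25% had 0.23 (unadjusted p = 0.0248 in limma). The 9 probe sets of RRM2B, 7 of them dim, ran from -0.29 to 0.37. Those of POLH, 4 in number, ran from -0.0041 to 0.44, and the second probe set of XPC had -0.05.

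DDB2 was also the 1 member whose promoter window held a full p53 element with no departure. Of the 30 members, 25 had windows of 300 bases in the RefSeq table, 250 before and 50 after each listed start. The p53 decamer consensus, which reads the same on both strands, was found without departure in 4 of these 25 genes (16%), AEN, DDB2, FDXR and PLK2, beside 8.06% of 27305 genes. A pair of such decamers up to 13 bases apart was in 1 (4%), beside 0.0366%. An adjacent pair with at most 1 departure in each decamer was in 2 (8%), DDB2 and MDM2, beside 0.194%. A match describes letters and not binding, and elements outside these windows were not searched. The element of DDB2 lies 6 to 26 bases after the listed start (GRCh38.p14, chr11:47214979-47214999, plus strand), with its decamers in capitals.
DDB2: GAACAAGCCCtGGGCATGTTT

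Among the 5 measured members of growth arrest and the cell cycle, PLK2 and CCNG1 were positive at every probe set. PLK2, a polo-like kinase of the G1 phase and of the stress response, had levels of 11.92 and 11.86 in knockdown arrays, against 11.62 and 11.54 in mock arrays. The groups were clearly apart, with a change of 0.31 (95% confidence interval 0.12 to 0.50, unadjusted p = 0.00737). Its 4 probe sets ran from 0.19 to 0.48, and the one with 0.48, 11722163_x_at, had an adjusted p of 0.0743. The promoter window of PLK2 is shown because it holds a decamer without departure and PLK2 was positive at all 4 of its probe sets. A lone decamer is not the pair that makes up an element, and 8.06% of all genes with windows held a decamer. Of the other members with one, DDB2 had a change of 0.31, AEN had -0.06 and FDXR was not measured. A link between decamer and change was not tested. Capitals mark the p53 decamer, 132 to 123 bases before the start (RefSeq, GRCh38.p14, chr5:58460087-58460336, minus strand, written in the direction of the gene).
PLK2: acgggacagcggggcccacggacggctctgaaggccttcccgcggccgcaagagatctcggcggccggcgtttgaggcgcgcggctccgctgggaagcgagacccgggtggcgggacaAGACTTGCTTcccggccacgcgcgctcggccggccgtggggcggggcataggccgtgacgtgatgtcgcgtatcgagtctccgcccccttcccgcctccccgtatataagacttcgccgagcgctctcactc

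CCNG1, cyclin G1, which recruits a phosphatase to MDM2, had 10.31 and 10.50 in knockdown arrays, against 10.15 and 10.04 in mock arrays. Its change was 0.31 (unadjusted p = 0.0192), and its 5 probe sets ran from 0.23 to 0.39. The brightest of them can match other sequences. With such probe sets left out the change of CCNG1 was 0.23 (unadjusted p = 0.113 in limma). GADD45A, a stress sensor that binds PCNA and inhibits cyclin B1 kinase, had a change of 0.06, SERTAD1, a regulator of cyclin D kinase, of 0.00, and PLK3, a stress-activated relative of PLK2, of -0.17. None of these reached an unadjusted p of 0.05 in limma. The paralogues PLK2 and PLK3 thus had changes of opposite sign, a difference that was not itself tested.

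**Figure D3:**
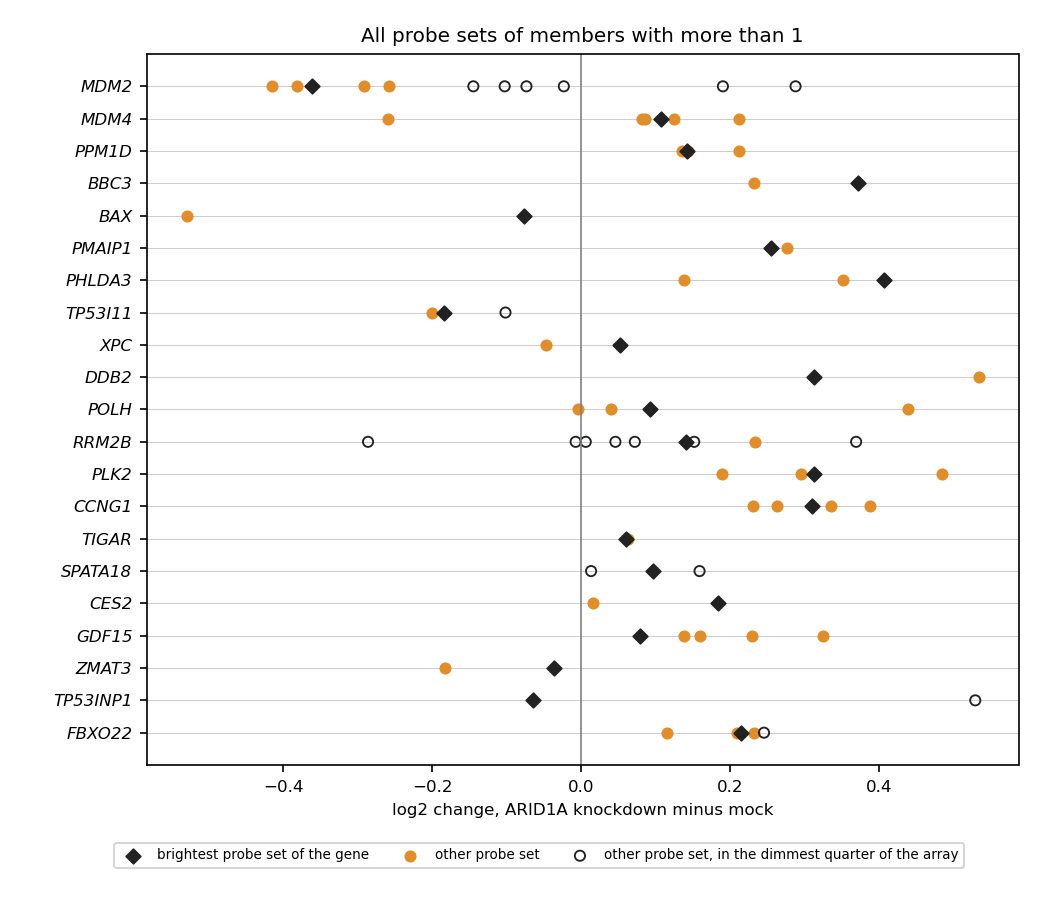
Log2 change, knockdown minus mock, at every probe set of the 21 members with more than 1. Diamonds are the brightest probe set of each gene, filled circles the others, and open circles others in the dimmest 25% of the array. All probe sets of PLK2, CCNG1, DDB2, BBC3, PMAIP1, PHLDA3, GDF15, PPM1D, FBXO22, TIGAR, SPATA18 and CES2 lie right of 0. All probe sets of BAX, TP53I11 and ZMAT3 lie left of it. All filled marks of MDM2 lie left of 0, and 2 of its open circles lie right of it.

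The changes of the measured members of metabolism ran from 0.06 to 0.18, and those of stress signalling from -0.06 to 0.21. GDF15, a secreted stress cytokine, had levels of 11.16 and 11.19 in knockdown arrays, against 11.11 and 11.09 in mock arrays. The groups did not overlap, but the change was 0.08 (95% confidence interval -0.10 to 0.26), and its 5 probe sets ran from 0.08 to 0.32. FBXO22, part of a ubiquitin ligase that targets p53 and lysine demethylases, had 9.62 and 9.72 in knockdown arrays, against 9.52 and 9.39 in mock arrays. Its change was 0.21 (unadjusted p = 0.0476), positive at all 5 of its probe sets. CES2, a carboxylesterase, had a change of 0.18 (unadjusted p = 0.0601), SPATA18, which acts in mitochondrial quality control, of 0.10 in the dimmest 25%, and TIGAR, a phosphatase that lowers glycolytic flux, of 0.06. SUSD6 had 0.04, the RNA-binding protein gene ZMAT3 -0.04 and TP53INP1, which acts in autophagy and p53 phosphorylation, -0.06. The second, dim probe set of TP53INP1, 11718610_at, had the opposite sign, at 0.53 (unadjusted p = 0.0103, adjusted p = 0.176). For the 19 members at an unadjusted p of 0.05 or more, the 95% confidence intervals lay between -0.42 and 0.38.

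Over all 87 probe sets of the members, 61 changes were positive and 26 negative, and 0 passed the test in limma. The positive ones made up 70.1%, beside 49.1% of all 49293 probe sets. Unadjusted p-values under 0.05 were found at 20 with a positive change (23.0%, beside 9.10% of all probe sets) and 5 with a negative one (5.75%, beside 7.07%). Of the 21 members with several probe sets, 15 had all of them on one side of 0, a count given without the share over all genes. Probe sets of a gene can share probes and always share the arrays, so they are not separate replicates.

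A second list held 55 other p53 targets, of which 53 were measured. DDIT4, an inhibitor of mTORC1 that other stress pathways also induce, rose 2.12-fold (log2 change 1.08, adjusted p = 0.0447 in limma) and was the 1 that passed. Its levels were 9.96 and 10.19 in knockdown arrays, against 9.06 and 8.92 in mock arrays. Unadjusted p-values under 0.05 in limma were found for 14 with a positive change (26.4%, beside 9.76% of all genes). With a negative change there were 0, beside 7.25% of all genes, and the median change was 0.07. The list was chosen with earlier results of these data known, so its share is not separate support for that of the members. After DDIT4 the smallest p-values were those of DRAM1, PANK1 and PERP. DRAM1, a lysosomal membrane protein of autophagy, had a change of 0.58 (adjusted p = 0.0844 in limma). Its other probe set, nearly as bright, had 0.27 (adjusted p = 0.240). PANK1, a kinase of coenzyme A synthesis, had 0.50 (0.0942). PERP, a desmosomal membrane protein, had 0.52 (0.105), with 0.58 and 0.39 at its other probe sets. With the intensity trend 8 of the 53 passed, all higher (15.1%, beside 5.28% of all genes). Leaving out knockdown replicate 2 made the count of 14 an 8 (15.1%, beside 5.69% of all genes), and leaving out mock replicate 2 made it a 9 (17.0%, beside 5.21%).

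CDKN1A, which encodes p21 and is the best known p53 target, had a change close to 0. Its levels were 8.82 and 8.75 in knockdown arrays, against 8.85 and 8.84 in mock arrays. The change was -0.06 (95% confidence interval -0.24 to 0.12, unadjusted p = 0.442 in limma), and its other probe set had -0.07. Genes that p21 represses through the DREAM complex had a median of -0.02 over 24 measured, and in limma 0 passed, while unadjusted p-values under 0.05 were found for 1 with a positive change (4.17%, beside 9.76% of all genes) and 4 with a negative one (16.7%, beside 7.25%). MYBL2, a transcription factor of the cell cycle, had a change of -0.43, the mitotic kinase PLK1 of -0.30, the phosphatase CDC25C of 0.27 and the replication helicase subunit MCM5 of -0.27. With the intensity trend MYBL2, PLK1 and CCNB1 were lower (adjusted p = 0.00574, 0.0414 and 0.0281), 12.5% of the list, beside 3.35% of all genes.

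Regulators of p53 beyond the 3 members had a median change of 0.00 over 29 measured. In limma 0 passed. Unadjusted p-values under 0.05 were found for 2 with a positive change (6.90%, beside 9.76% of all genes) and 0 with a negative one (beside 7.25%). TP53BP1, a scaffold of double-strand break repair that binds p53, had levels of 7.13 and 7.20 in knockdown, against 6.78 and 6.69 in mock arrays. The change was 0.43 (adjusted p = 0.101 in limma), and its other probe sets had 0.53, 0.29 and -0.02. CHEK2, a checkpoint kinase that phosphorylates p53, had 8.29 and 8.34 in knockdown arrays, against 8.01 and 7.95 in mock arrays, a change of 0.33 (adjusted p = 0.133). Its brightest probe set can match other sequences, and its second, dimmer one had -0.27. With the intensity trend TP53BP1 and CHEK2 passed as higher (adjusted p = 0.0231 for each), 6.90% of the list, beside 5.28% of all genes. SMYD2, a methyltransferase of p53, had -0.17, and RCHY1, another ubiquitin ligase of p53, had -0.16.

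**Figure D4:**
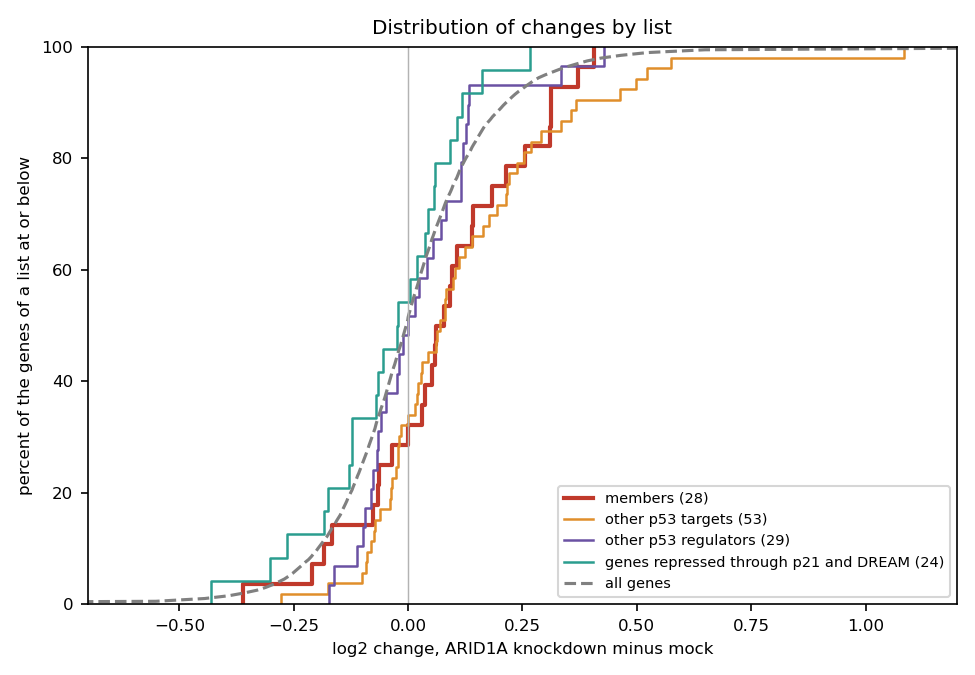
Share of the genes of each list, in percent, with a log2 change (knockdown minus mock) at or below the value on the horizontal axis, at the brightest probe set of each gene. The curves of the members and of the other p53 targets lie right of that of all genes over most of the range (medians 0.07 and 0.07 beside -0.0043), while other p53 regulators (0.00) and genes repressed through p21 and DREAM (-0.02) have medians near it.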

How the data were processed

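Total RNA of 4 OE33 cultures was hybridised to Affymetrix Human PrimeView arrays. The deposited table gives 1 log2 level per probe set and array. The submitters' processing notes name RMA and Partek without versions or roles. RMA sets arrays to a common distribution and compresses changes of dim probe sets, so a shift in total RNA cannot be seen. The log2 scale was taken from the values and the naming of RMA. Of 49372 probe sets, 79 controls were left out and 49293 tested. Genes came from the platform annotation, where 44988 probe sets had 1 gene, 1832 several and 2473 none. Of the identifiers, 27 were absent from the RefSeq gene table (GRCh38.p14).

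Knockdown was compared with mock by limma 3.58.1 (lmFit and eBayes, R 4.3.3), two-sided, without pairing, with Benjamini-Hochberg adjustment over all probe sets. Residual degrees of freedom were 2, with a prior worth 3.62. Same-numbered arrays deviated in opposite directions (r = -0.202 over probe sets). The procedure was tested on simulated data, with changes larger than that of any member at its brightest probe set. It therefore does not show how often changes of the members' size would be found. The members and lists were chosen with earlier results of these data known. All members were named, and of other lists the 4 genes with the smallest p, any past the test, and CDKN1A. Alternatives were quantile normalization, median centring, a filter on dim probe sets, unshared probe sets, the mean of a gene's probe sets, an intensity trend, the replicate number as a block and each array left out. Arrays have no depth, and precision depends in part on how many were run, 2 per group.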

Additional observations from a re-analysis of the deposited data

How the results depend on the processing

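The log2 change of ARID1A was -1.78 with either replicate block, and it no longer passed there (adjusted p = 0.217 with replicate numbers as the block and 0.187 with crossed numbers, a pairing added after the data were seen). With an array left out it ran from -1.80 to -1.75 and did not pass either. Those fits have 1 residual degree of freedom and called 0 genes, so they say nothing about stability. With the mean of all its probe sets the change of ARID1A was -1.07 (adjusted p = 0.00471). Members past the test numbered 0, and 4 with the intensity trend. Members higher at an unadjusted p under 0.05 in limma numbered 7 (25.0%, beside 9.76% of all genes). The number was 6 with median centring (21.4%, beside 9.16%) and 6 with the replicate block (21.4%, beside 6.95%). It was 5 without shared probe sets (18.5%, beside 9.21%) and 8 with crossed replicate numbers (28.6%, beside 11.0%). Members lower numbered 2 (7.14%, beside 7.25% of all genes). There was 1 without shared probe sets (3.70%, beside 6.65%) and 1 with the replicate block (3.57%, beside 4.92%). With the mean of all probe sets of a gene, 9 were higher (32.1%, beside 9.58% of all genes) and 3 lower (10.7%, beside 7.55%). The 3 lower were BAX, TP53I11 and TRIAP1, and not MDM2.

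Of 222 member changes under settings that kept all arrays, 220 kept their direction. SERTAD1 turned to 0.0022 with arrays centred on their medians, and TP53INP1 turned to 0.23 with the mean of its probe sets. With an array left out, 105 of 112 kept direction, and the others belong to ZMAT3 (-0.11 to 0.040), SUSD6 (-0.017 to 0.092), SERTAD1 (-0.034 to 0.034), TP53I3 (-0.033 to 0.093) and TIGAR (-0.053 to 0.17). The cause was not tested. Over all genes 34 were higher and 39 lower past the test, 178 and 108 with median centring, and 4 and 8 without shared probe sets.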
